A study of Mus musculus with 12 samples.

Results

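The heat shock genes described here are 10 chaperones and regulators of the cytosol and the mitochondrion, Hsph1, Dnajb1, Hspa1a, Hspa1b, Hspa8, Hsp90aa1, Hspb1, Hspd1, Hspe1 and Hsf1, followed in the pituitary of stressed mice. They were chosen by name: every array probe whose gene symbol in the platform's annotation is one of the 10 was taken, which gave 15 probes of 46147, for 8 of the 10 genes. The array's annotation names 17658 genes in all. Hspa1b and Hsf1 had no probe under their symbol in that annotation and were not analysed here. Of the 15 probes, 11, for 7 genes, were detected on all 12 arrays, and the other 4 were detected on none. Detection means a detection p-value, the scanner software's comparison with negative control beads, under 0.01.

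The study profiled pituitaries of wild-type mice and of Crhr1 knockout mice, which lack the type 1 receptor for corticotropin-releasing hormone, after restraint in a tube. Each genotype has a control group and groups killed 1 h or 3 h after a restraint of 30 min began, so there are 6 groups with 2 arrays each. Every mouse, controls included, received metyrapone, an inhibitor of corticosterone synthesis, at 150 mg/kg 12 h beforehand and at 100 mg/kg directly before the stress, and the controls were killed 1 to 3 h after injection. The treatment protocol also lists a basal blood sample from the orbital sinus after the second injection. Pooled amplified RNA was hybridised. The titles call the 2 arrays of a group technical replicates. The design text speaks both of an N of 2 per group and of technical duplicates, so that it is unclear whether a group is 1 pool or 2, and the number of mice in a pool, their sex, their age and the construction of the knockout are not stated in the labels. The p-values below therefore measure the spread between arrays, which may be technical. Times and groups follow the sample titles; for the knockout control and knockout 3 h arrays the source field instead names a 1 h group.

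Heat shock proteins hold unfolded proteins and help them fold. HSP70 proteins bind and release their clients in a cycle driven by J-domain partners and by exchange factors of the HSP110 type, HSP90 takes over signalling proteins such as the glucocorticoid receptor, and the small heat shock proteins keep unfolded clients soluble. Inside mitochondria the chaperonin HSP60 and its lid HSP10 enclose newly imported proteins. Many of these genes are switched on together by heat shock factor 1, a trimer that binds inverted repeats of the bases GAA. In the corticotroph cells of the pituitary, HSP90 with its HSP70 partners keeps the glucocorticoid receptor ready to bind hormone.

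By a search for exact matches the promoters carry that repeat to different degrees. The 5 windows of 300 bases around the annotated start printed here show the strongest match, weaker matches and no match by that search. Imperfect repeats were not searched for. RefSeq (GRCm38.p6) gave 10 windows for 7 of the 10 genes, and Hspa8, Hsp90aa1 and Hsf1 had no entry. Capitals mark matches to TTCNNGAA or GAANNTTC, each of which reads the same on both strands, and overlapping matches are merged.
Hsph1 promoter, chr5:149636266-149636565 (minus strand): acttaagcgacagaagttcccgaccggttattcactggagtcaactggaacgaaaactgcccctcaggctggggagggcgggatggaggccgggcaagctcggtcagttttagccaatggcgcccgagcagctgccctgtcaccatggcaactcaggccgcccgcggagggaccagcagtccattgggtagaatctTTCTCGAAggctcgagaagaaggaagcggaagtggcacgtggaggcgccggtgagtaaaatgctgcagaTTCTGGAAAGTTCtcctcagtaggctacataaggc
Hspe1 promoter, chr1:55087898-55088197 (plus strand): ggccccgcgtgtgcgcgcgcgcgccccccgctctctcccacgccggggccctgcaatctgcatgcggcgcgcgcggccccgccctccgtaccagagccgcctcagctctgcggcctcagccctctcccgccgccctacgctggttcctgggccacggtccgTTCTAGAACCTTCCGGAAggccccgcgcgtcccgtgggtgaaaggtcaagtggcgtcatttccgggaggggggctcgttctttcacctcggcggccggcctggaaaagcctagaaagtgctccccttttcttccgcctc
Hspb1 promoter, chr5:135887669-135887968 (plus strand): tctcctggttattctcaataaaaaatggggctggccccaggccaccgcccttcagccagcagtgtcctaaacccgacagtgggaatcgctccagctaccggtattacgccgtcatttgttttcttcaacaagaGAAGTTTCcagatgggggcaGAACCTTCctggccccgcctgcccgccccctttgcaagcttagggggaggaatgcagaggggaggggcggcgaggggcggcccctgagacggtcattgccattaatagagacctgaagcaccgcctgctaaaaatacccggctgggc
Hspa1a promoter, chr17:34972107-34972406 (minus strand): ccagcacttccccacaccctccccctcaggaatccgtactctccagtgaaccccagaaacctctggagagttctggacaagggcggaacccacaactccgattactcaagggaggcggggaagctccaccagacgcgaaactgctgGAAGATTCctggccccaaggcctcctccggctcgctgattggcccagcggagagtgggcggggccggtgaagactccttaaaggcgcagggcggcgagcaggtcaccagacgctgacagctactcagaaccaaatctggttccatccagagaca
Dnajb1 promoter, chr8:83607925-83608224 (plus strand): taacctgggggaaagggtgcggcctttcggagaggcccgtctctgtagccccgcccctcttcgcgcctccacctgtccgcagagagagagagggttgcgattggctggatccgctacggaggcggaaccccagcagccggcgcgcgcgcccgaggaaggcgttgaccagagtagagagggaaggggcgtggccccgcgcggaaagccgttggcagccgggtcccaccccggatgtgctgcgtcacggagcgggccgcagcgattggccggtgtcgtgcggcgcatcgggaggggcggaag

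A run of 3 adjoining repeats, GAANNTTCNNGAA searched on both strands, was present in 4 of the 10 windows and in 198 (0.603%) of 32851 windows of the same length over all genes. The 4 are both windows of Hsph1, which overlap each other, 1 of the 2 windows of Hspd1 and the window of Hspe1. In the printed Hsph1 window the match began 15 bases downstream of the start. Hspd1 and Hspe1 lie head to head on chromosome 1 with 96 bases in common, and their windows read the same cluster from opposite strands. The pair GAANNTTC was in 7 of 10 windows against 7.86% of all windows. The Hspb1 window held it at 2 places, the first beginning 117 bases upstream of the start. Hspa1a and Hspa1b windows were identical at 296 of 300 bases and held it once. Neither window of Dnajb1 held an exact match to any of these. These matches are descriptions of sequence, and no binding was measured here.

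Levels are given as normalized log2 intensity, the scanner's mean bead signal after background correction, a shift of 16 and quantile normalization across the 12 arrays. Comparisons used limma over 14405 probes detected on at least 2 arrays, with Benjamini-Hochberg adjustment over all of them, and a probe passed the threshold where the groups differed at least 1.5-fold with an adjusted p under 0.05. Differences are log2 differences ± SE. Over the array set, 9212 to 13506 probes were detected on 11 arrays and 6119 (13.3%) on the second knockout 3 h array. The 2 arrays of a group correlated at 0.964 to 0.979 over tested probes, except the knockout 3 h pair at 0.920. Heat shock differences that passed and rest on that group are therefore also given without its second array. For other values of that group this run is given only in part. All first replicates were on 1 slide and all second replicates on the other, so each difference can be read within each slide. Groups had the same position on both slides, and position cannot be told apart from group. For the deleted gene, Crhr1 probe 5390647 was detected on 4 arrays of the 6 from wild type and on none from the knockout. Its knockout minus wild-type difference was between -1.04 and -0.85 without passing the threshold. Crhr1 probe 450161 was detected on 1 array of each genotype and probe 3140070 on none. Whether any of them lies in the deleted part is not stated in the labels.

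**Figure D1:**
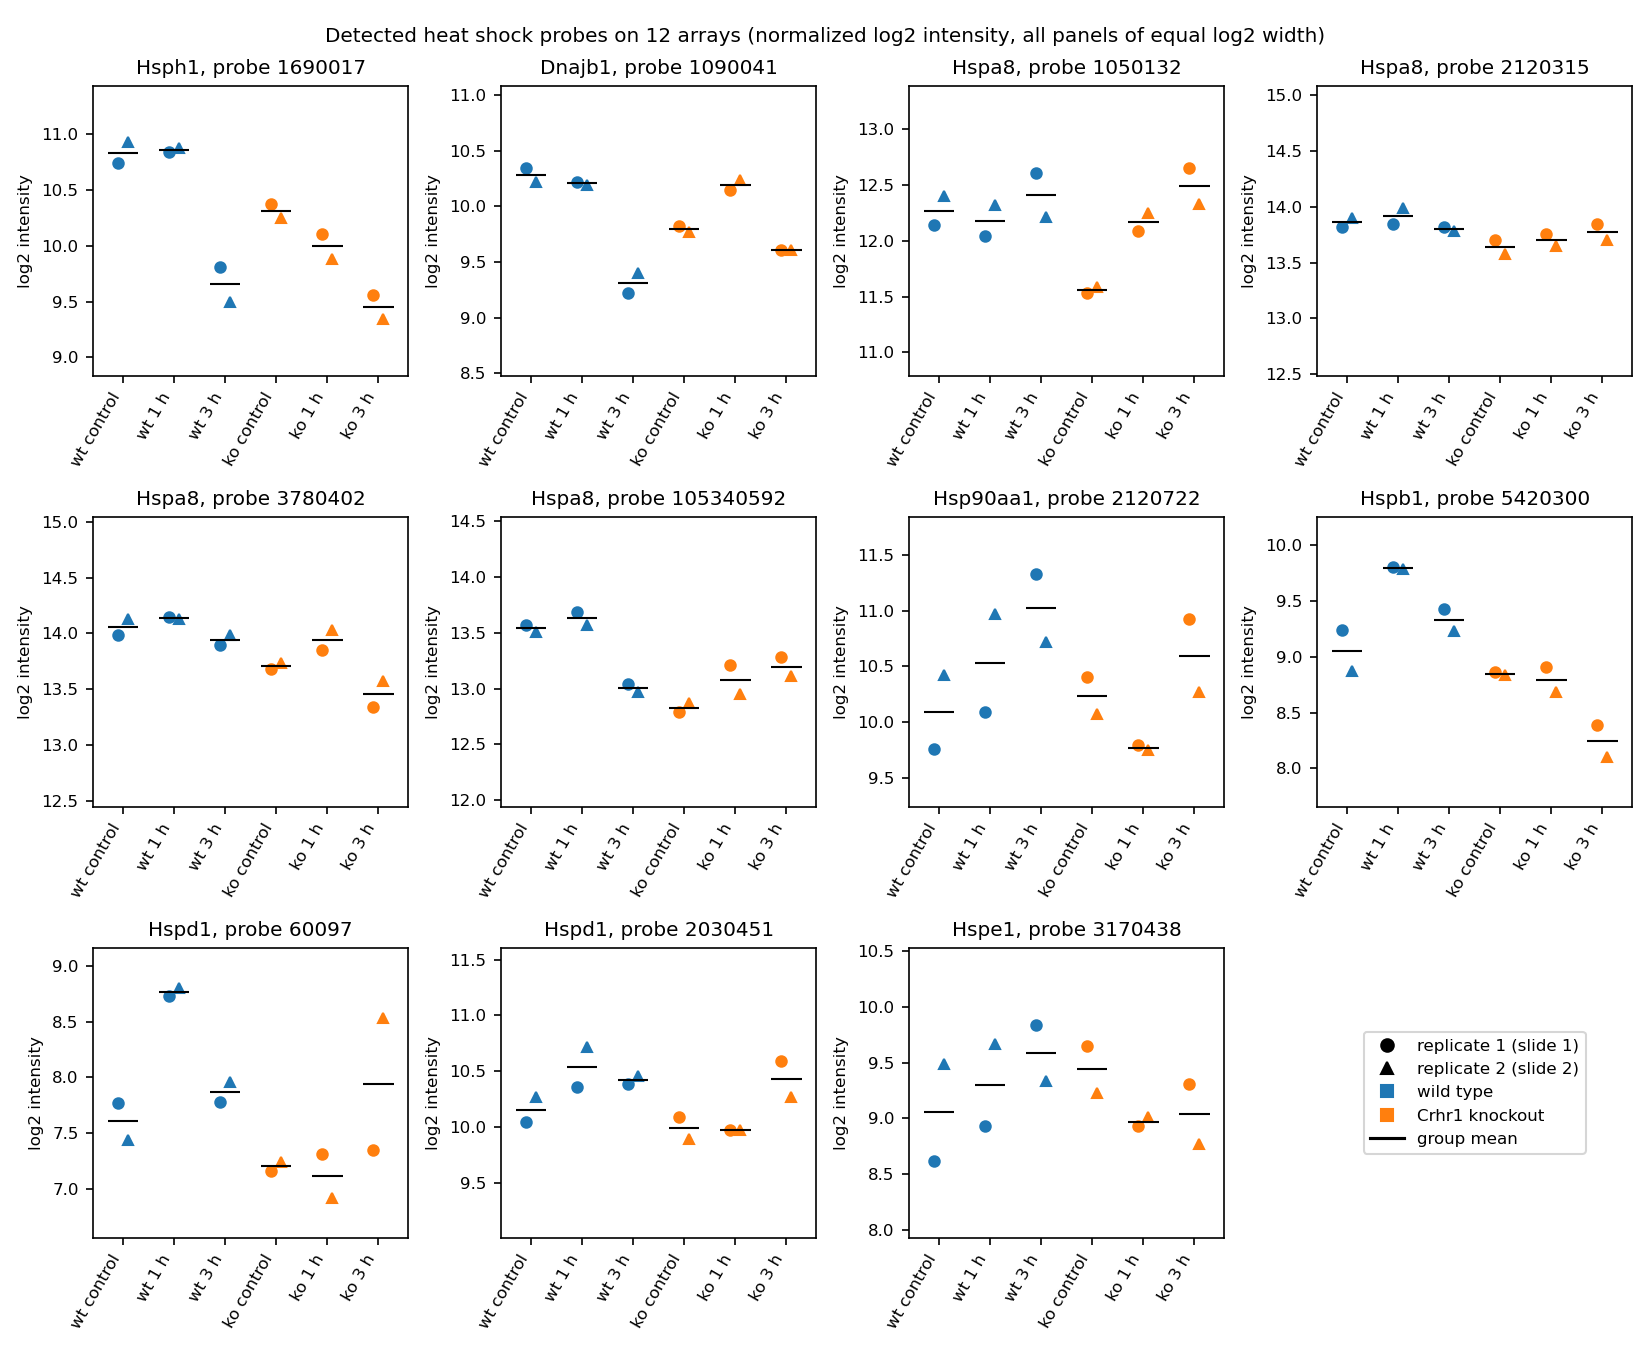
Normalized log2 intensity (y axis) of the 11 detected heat shock probes on the 12 arrays by group (x axis); circles are the first and triangles the second array of a group, blue is wild type, orange is Crhr1 knockout, bars are group means, and every panel covers the same log2 width. Hsph1 is lowest in both 3 h groups, Dnajb1 lowest in the wild-type 3 h group, and Hspb1 lowest in the knockout 3 h group.

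Hsph1 encodes the HSP110 protein, which exchanges the nucleotide on HSP70 and holds unfolded clients. It was lower at 3 h than at 1 h in wild-type mice and lower at 3 h than in controls in knockout mice. In wild type its normalized level was 10.74 and 10.93 on the control arrays, 10.84 and 10.88 on the 1 h arrays, and 9.81 and 9.50 on the 3 h arrays. In the knockout it was 10.38 and 10.25 on the control arrays, 10.11 and 9.88 on the 1 h arrays, and 9.56 and 9.34 on the 3 h arrays. The wild-type control and 1 h arrays are the 4 highest of the 12, both 3 h groups are the lowest and overlap each other, and the knockout control and 1 h arrays lie between without overlapping either. On the raw scale the 4 highest arrays read 1569 to 2803 and the knockout 3 h arrays 728 and 930.

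Between 1 h and 3 h in wild type, Hsph1 fell by 1.20 on the log2 scale (SE 0.18, 2.30-fold lower, adjusted p = 0.0384), with -1.03 on the first slide and -1.37 on the second. It was the only 1 of 11 heat shock probes to pass in this comparison, in which 0.361% of all probes passed, 0.250% lower. Hsph1 passed there without either knockout 3 h array and with none of the other 10 arrays left out, where the adjusted p was 0.0595 or more. It did not pass with median centring in place of quantile normalization (adjusted p = 0.312), in the authors' processed table (adjusted p = 0.0666), with no detection filter (adjusted p = 0.0595) or in a fit of only the 4 arrays compared (adjusted p = 0.0846).

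From control to 3 h in wild type the Hsph1 difference was as large, -1.18 ± 0.18, but its adjusted p of 0.0513 missed the threshold. Of the 11 probes 0 passed in that comparison (limma), 4 had an unadjusted p under 0.05 as did 1606 of 14405 probes, and 0.167% of all probes passed. With 1 probe kept per gene symbol, which leaves fewer tests, the adjusted p was 0.0397 for Hsph1 and 0.0385 for Dnajb1, and both passed. Both also passed without the background correction, with array quality weights and when either knockout 3 h array was left out, but when any other array was left out the adjusted p was 0.0880 or more for Hsph1 and 0.0948 or more for Dnajb1.

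In knockout mice Hsph1 fell by 0.87 on the log2 scale from control to 3 h (SE 0.18, 1.82-fold lower, adjusted p = 0.0246), with -0.82 and -0.91 on the slides. In this comparison 2 of 11 heat shock probes passed, 1 lower and 1 higher, where 8.68% of all probes passed, 5.41% lower and 3.26% higher. Without the second knockout 3 h array the difference was -0.76 (adjusted p = 0.0823), without the first control array -0.80 (adjusted p = 0.129) and without the second control array -0.93 (adjusted p = 0.144). Hsph1 also did not pass with median centring (-1.24, adjusted p = 0.0778), with array quality weights (adjusted p = 0.115) or in a fit of only the 4 arrays (adjusted p = 0.277). The knockout minus wild-type difference in this 3 h response was 0.31 ± 0.25 for Hsph1 (95% interval -0.26 to 0.88, adjusted p = 0.559), which did not pass. At 1 h the knockout was below wild type by 0.86 ± 0.18 in Hsph1, with no overlap of arrays and an adjusted p of 0.0638, and it passed without either knockout 3 h array.

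Dnajb1 encodes a J-domain partner that stimulates the ATPase of HSP70. Its wild-type arrays read 10.34 and 10.22 in controls, 10.22 and 10.19 at 1 h, and 9.22 and 9.40 at 3 h. Its knockout arrays read 9.82 and 9.77 in controls, 10.15 and 10.24 at 1 h, and 9.61 on both at 3 h. The wild-type 3 h arrays are the lowest of the 12, below both knockout 3 h arrays, and the knockout 1 h arrays stand at the level of the wild-type 1 h arrays, with which they overlap.

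The wild-type 3 h group differed from control by -0.97 ± 0.15 (adjusted p = 0.0513) and from 1 h by -0.89 ± 0.15 (adjusted p = 0.0502) in Dnajb1, both short of the threshold. With the slide as a block the second of these reached an adjusted p of 0.0468. In the knockout the corresponding differences were -0.19 ± 0.15 and -0.59 ± 0.15 (adjusted p = 0.432 and 0.100), the latter -1.0 with median centring (adjusted p = 0.216). The difference between genotypes in the 3 h response was 0.78 ± 0.21 for Dnajb1 (95% interval 0.31 to 1.25, adjusted p = 0.132), which did not pass and was 0.34 (adjusted p = 0.757) with median centring. Both arrays of a group lay close together for Dnajb1, with a gap of at most 0.18.

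Over the 12 arrays Hsph1 and Dnajb1 correlated at r = 0.74, and over the 6 group means at 0.79, arrays and groups being shared by both probes. The probes most like Hsph1 across the 12 arrays, among 11220 probes with 1 gene symbol, were those of Fam13c (r = 0.959), Josd2 (r = 0.953) and Spop (r = 0.938). Those most like Dnajb1 were Rybp (r = 0.978), Fosl2 (r = 0.932) and Mest (r = 0.932).

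Hspb1 encodes HSP27, a small heat shock protein that binds unfolded clients and actin. It was lower in knockout than in wild-type pituitaries at 3 h. Its wild-type arrays read 9.24 and 8.87 in controls, 9.81 and 9.79 at 1 h, and 9.43 and 9.23 at 3 h. Its knockout arrays read 8.86 and 8.84 in controls, 8.91 and 8.68 at 1 h, and 8.39 and 8.10 at 3 h. The wild-type 1 h arrays are the highest and the knockout 3 h arrays the lowest, and the genotypes overlap only through the lower wild-type control array and the higher knockout 1 h array.

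At 3 h Hspb1 was lower in the knockout by 1.09 ± 0.19 (2.12-fold lower, adjusted p = 0.0340), with -1.04 and -1.13 on the slides. It was 1 of 11 heat shock probes to pass, where 1.38% of all probes passed, 0.958% lower. Hspb1 passed when either wild-type control array or the first knockout 3 h array was left out, and otherwise did not: without the second knockout 3 h array the difference was -0.94 (adjusted p = 0.137), and leaving out any of the remaining arrays gave an adjusted p of 0.0537 to 0.205. It also missed the threshold with no detection filter (adjusted p = 0.0551), with array quality weights (adjusted p = 0.170) and in a fit of only the 4 arrays (adjusted p = 0.644).

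The same gene differed by -1.01 ± 0.19 between genotypes at 1 h (adjusted p = 0.0516) and by -0.20 ± 0.19 in controls (adjusted p = 0.636). From control to 1 h in wild type it differed by 0.75 ± 0.19 (adjusted p = 0.410) and from control to 3 h in the knockout by -0.61 ± 0.19 (adjusted p = 0.0760). With the slide as a block the 1 h genotype difference reached an adjusted p of 0.0301 and the knockout 3 h difference 0.0373. The former also passed when either knockout 3 h array was left out. The latter was -0.75 without the first knockout 3 h array and -0.47 without the second, on either side of the full -0.61. The second Hspb1 probe, 100580593, was not detected on any array.

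Hspd1 and Hspe1 encode HSP60 and HSP10, the mitochondrial chaperonin and its lid, and are transcribed from the shared promoter printed above. Hspd1 has 2 detected probes, 60097 and 2030451. On probe 60097 the wild-type arrays read 7.77 and 7.44 in controls, 8.73 and 8.80 at 1 h, and 7.78 and 7.96 at 3 h. The knockout arrays read 7.16 and 7.24 in controls, 7.31 and 6.92 at 1 h, and 7.35 and 8.53 at 3 h. The wild-type 1 h arrays are the highest, and the knockout 3 h arrays disagree with each other by more than any other pair of heat shock values, 1.17.

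At 1 h the Hspd1 probe 60097 was lower in the knockout by 1.65 ± 0.33 (adjusted p = 0.0625, 95% interval -2.40 to -0.90), and probe 2030451 by 0.57 ± 0.19 (adjusted p = 0.202). Neither passed, though probe 60097 did without either knockout 3 h array (adjusted p down to 0.0114) and with median centring (-1.77, adjusted p = 0.0187). In wild type at 1 h against control probe 60097 differed by 1.16 ± 0.33 (adjusted p = 0.597) and probe 2030451 by 0.38 ± 0.19 (adjusted p = 0.959). From 1 h to 3 h in wild type probe 60097 differed by -0.90 ± 0.33 (adjusted p = 0.298), and from control to 3 h in the knockout by 0.74 ± 0.33 (adjusted p = 0.187). That last value was 1.32 (adjusted p = 0.00573) without the first knockout 3 h array and 0.15 (adjusted p = 0.737) without the second, and 0.48 (adjusted p = 0.133) without the background correction. Against the knockout 1 h group the same probe differed by 0.83 ± 0.33 (adjusted p = 0.233), which passed without the first knockout 3 h array (1.41, adjusted p = 0.00619) and was 0.24 (adjusted p = 0.651) without the second. It was 0.55 with median centring and 0.53 without the background correction. The 2 Hspd1 probes correlated at 0.62 over arrays and at 0.93 over group means and had the same order of groups.

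The other Hspd1 probe, 2030451, ranged from 9.89 to 10.72, with the lowest in the knockout controls and the highest in the wild-type 1 h group. Hspe1, on probe 3170438, ranged from 8.62 to 9.84, and in wild-type controls and at 1 h its arrays differed by 0.88 and 0.75 between slides, so that all 5 pairs of neighbouring groups in its order overlapped. No Hspe1 difference reached 1.5-fold in any of the 9 comparisons of groups. The order of groups differed between the genes of this pair: Hspe1 was highest in the wild-type 3 h group and Hspd1 in the wild-type 1 h group.

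Hspa8 encodes HSC70, the constitutive HSP70 of the cytosol, and its 4 probes read between 11.53 and 14.15. They carry the same transcript accession in the annotation, but probes 1050132 and 3780402 correlated at only -0.01 over the 12 arrays. On probe 1050132 the wild-type arrays read 12.14 and 12.40 in controls, 12.04 and 12.32 at 1 h, and 12.61 and 12.21 at 3 h. The knockout arrays read 11.53 and 11.59 in controls, 12.09 and 12.25 at 1 h, and 12.65 and 12.33 at 3 h. The knockout control arrays stand below all others, and the wild-type groups overlap one another.

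From control to 3 h in the knockout, Hspa8 rose on probe 1050132 by 0.93 ± 0.21 (1.91-fold, adjusted p = 0.0297), with 1.13 and 0.74 on the slides. The other 3 probes of the gene differed by 0.13 ± 0.15 (probe 2120315), -0.25 ± 0.16 (probe 3780402) and 0.36 ± 0.16 (probe 105340592) and none passed. The probes thus disagree, and which transcripts each probe reads was not analysed here. Without the second knockout 3 h array the value on probe 1050132 was 1.09 (adjusted p = 0.0446), and it did not pass without either knockout control array (0.90 and 0.96, adjusted p = 0.138 and 0.164). With median centring it was 0.41 (adjusted p = 0.584), while the median of all probes shifted by -0.24 under that scaling and by -0.11 under quantile normalization. It also missed the threshold with no detection filter (adjusted p = 0.0535), with array quality weights (adjusted p = 0.136) and in a fit of only the 4 arrays (adjusted p = 0.277).

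**Figure D2:**
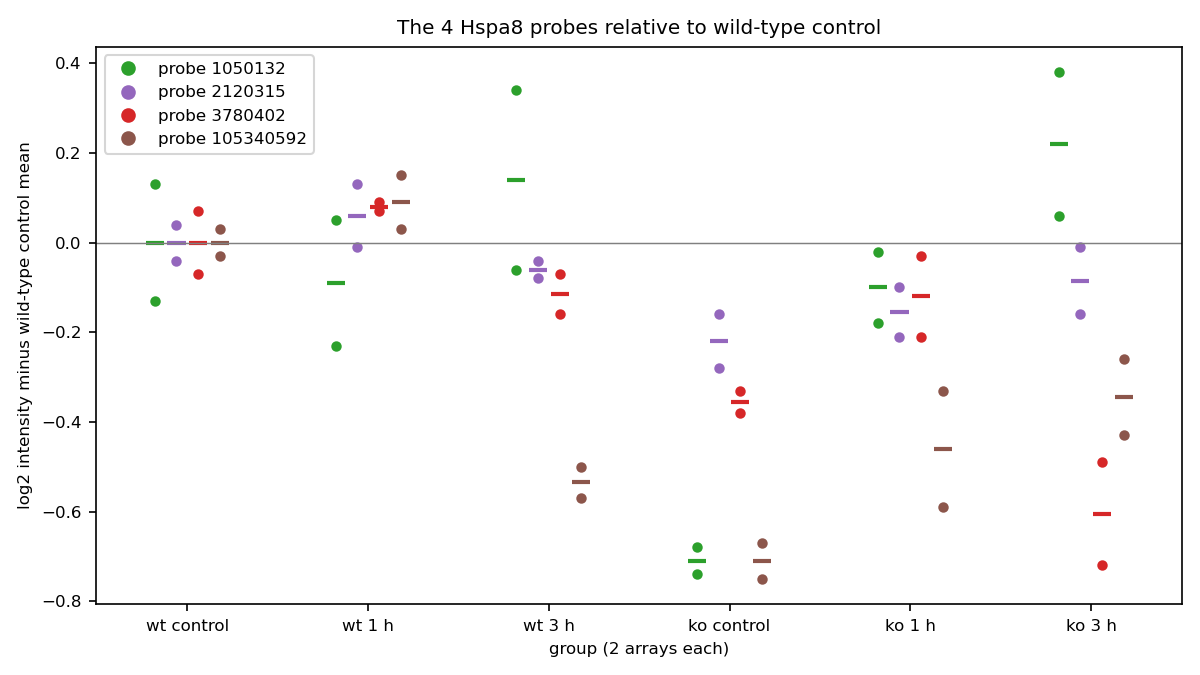
Log2 intensity of each of the 4 Hspa8 probes minus its own wild-type control mean (y axis) on the 12 arrays by group (x axis); points are arrays and bars group means. Probes 1050132 and 105340592 are lowest in the knockout controls, probe 2120315 stays within 0.41 over all arrays, and probe 3780402 is lowest in the knockout 3 h group.

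In controls the knockout was lower than wild type on all 4 Hspa8 probes, by 0.71 ± 0.21 on probe 1050132 (adjusted p = 0.118), by 0.70 ± 0.16 on probe 105340592 (adjusted p = 0.0628) and by 0.36 ± 0.16 and 0.22 ± 0.15 on the others. None passed, but with the slide as a block probe 105340592 reached an adjusted p of 0.0462, and it passed without either knockout 3 h array. In this comparison 0 of 11 heat shock probes passed (limma), 5 had an unadjusted p under 0.05, as did 2557 of 14405 probes, and 1.67% of all probes passed. Probe 105340592 read 13.57 and 13.51 in wild-type controls, 13.69 and 13.57 at 1 h and 13.04 and 12.97 at 3 h. In the knockout it read 12.79 and 12.87, 13.21 and 12.95, and 13.28 and 13.11 in the same order. Its wild-type 3 h arrays stand below the other wild-type arrays, by -0.62 ± 0.16 against 1 h (adjusted p = 0.147) and -0.53 ± 0.16 against control (adjusted p = 0.282), whereas its knockout arrays are lowest in controls. The knockout 1 h group differed from the knockout controls by 0.61 ± 0.21 on probe 1050132 (adjusted p = 0.306).

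Hsp90aa1 encodes the stress-inducible cytosolic HSP90. Its probe 2120722 read 9.76 and 10.42 in wild-type controls, 10.09 and 10.97 at 1 h, and 11.33 and 10.72 at 3 h. In the knockout it read 10.40 and 10.07 in controls, 9.79 and 9.75 at 1 h, and 10.92 and 10.27 at 3 h. Values of a pair differed by up to 0.89 between slides, and all 5 pairs of neighbouring groups overlapped. The wild-type 3 h group differed from control by 0.93 ± 0.37 (adjusted p = 0.396, 95% interval 0.10 to 1.76). In the knockout the 3 h group differed from the 1 h group by 0.83 ± 0.37 (adjusted p = 0.267). At 1 h the knockout differed from wild type by -0.76 ± 0.37 (adjusted p = 0.371). These Hsp90aa1 values moved when single arrays were left out. The first was 0.60 without the first wild-type control array, the second was 0.50 without the first knockout 3 h array and 0.40 with median centring, and the third was -1.20 and -0.32 without the first and the second wild-type 1 h array. No Hsp90aa1 difference passed the threshold, and its other 2 probes, 4560041 and 5220133, were not detected.

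Hspa1a, the stress-inducible HSP70, had 1 probe, 105130121, which was not detected on any array, at raw intensities of 85.5 to 289. The 4 undetected heat shock probes together ranged from 74.4 to 321 raw and from 4.68 to 5.87 on the normalized log2 scale, and their lowest detection p was 0.0718. At this signal over background no level and no change of Hspa1a can be given, and a low level is not told apart from none.

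**Figure D3:**
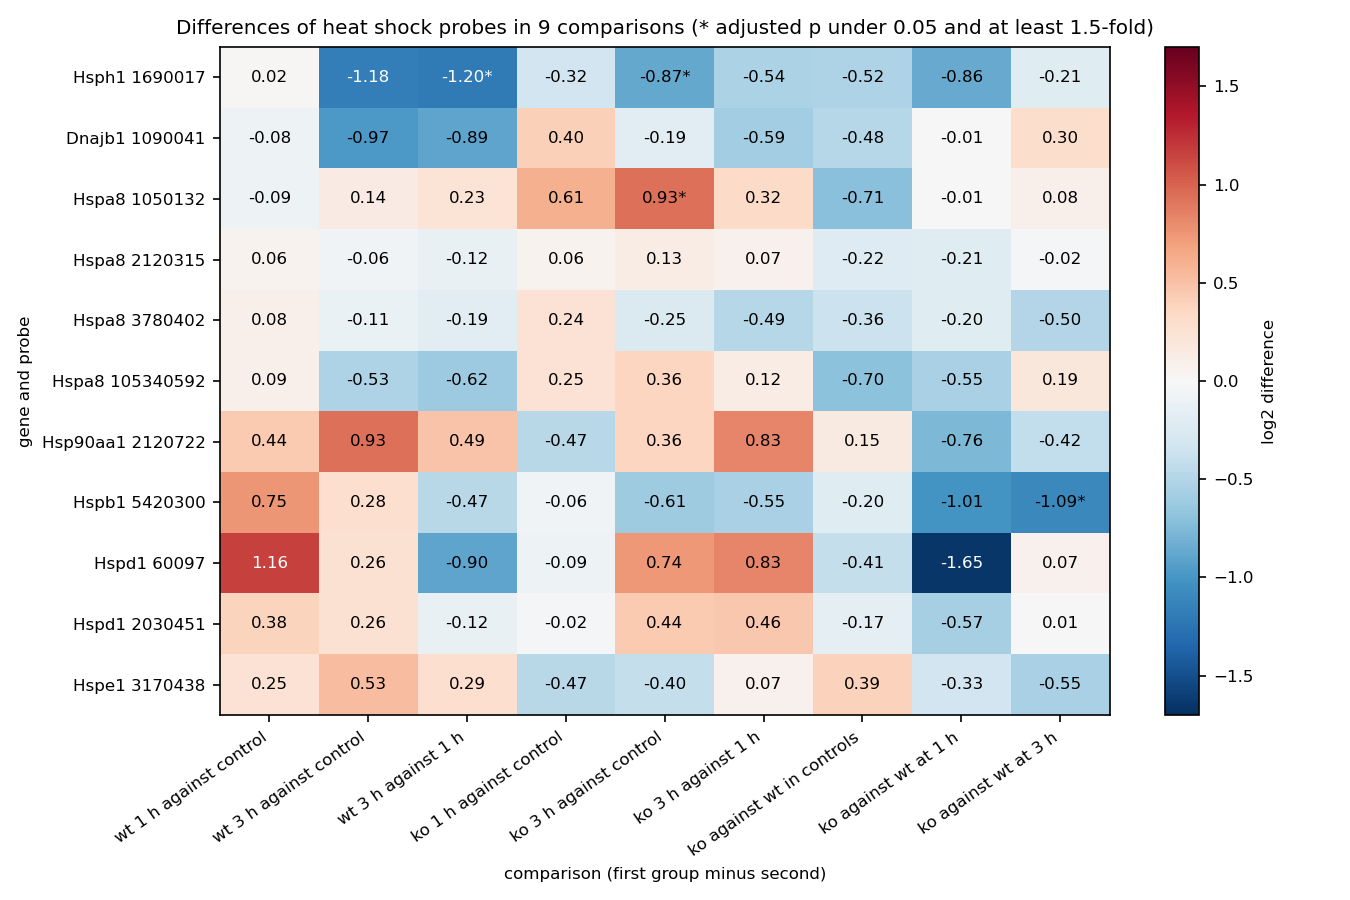
Log2 differences (colour and printed value, first group minus second) of the 11 detected heat shock probes (rows) in 9 comparisons of groups (columns); stars mark an adjusted p under 0.05 with at least a 1.5-fold difference. The 4 stars stand on Hsph1 at 3 h in each genotype, on 1 Hspa8 probe in the knockout and on Hspb1 between genotypes. Every value in the column of knockout against wild type at 1 h is negative, those of Dnajb1 and Hspa8 probe 1050132 at -0.01.

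Across the 9 comparisons of groups, 4 of 99 probe and comparison pairs passed the threshold, where 1995 of 129645 pairs (1.54%) passed over all probes. Differences of at least 1.5-fold numbered 24 of 99, and the share over all probes is not given here. By the moderated F test over the 6 groups, 3 of 11 probes passed at an adjusted p under 0.05, where 5.64% of all probes passed. They were Hsph1 (adjusted p = 0.0118), Hspb1 (adjusted p = 0.0206) and Dnajb1 (adjusted p = 0.0251). Leaving out either wild-type 1 h array left 0 of the 3, leaving out either wild-type 3 h or either knockout control array left only Hsph1, and leaving out either wild-type control array or the second knockout 1 h array left Hsph1 and Hspb1. The share of all probes passing in these refits is not given here, so they do not tell heat shock probes apart from the rest.

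**Figure D4:**
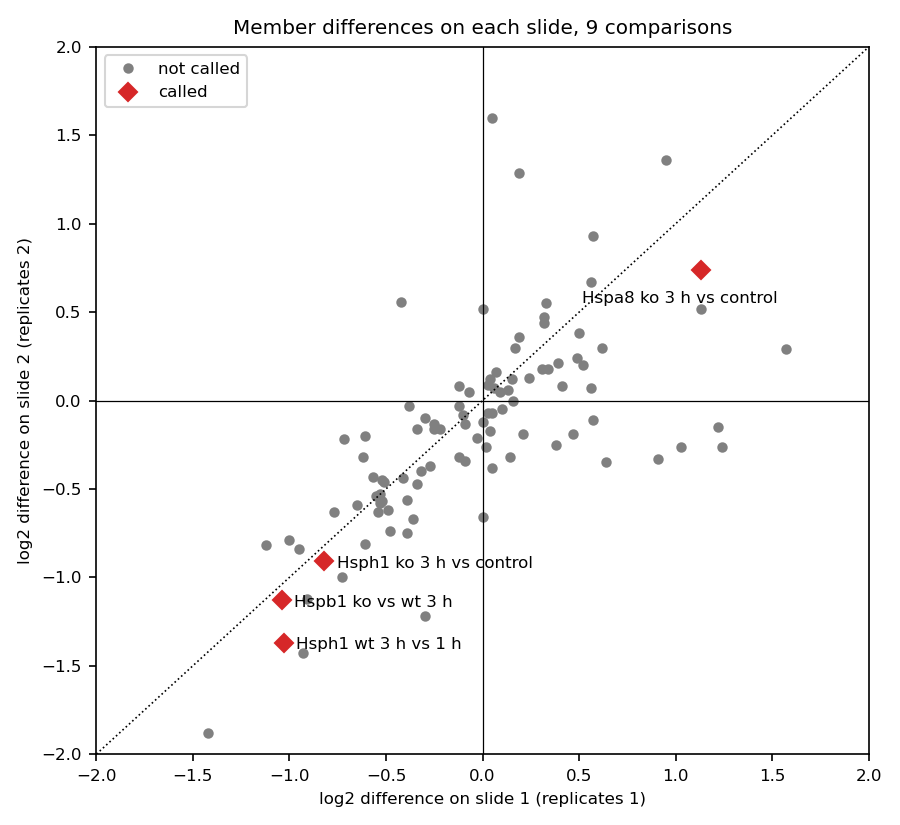
Log2 difference of each of the 11 detected heat shock probes in each of 9 comparisons, on the first slide (x axis) and on the second slide (y axis); red diamonds (called) passed the threshold, grey points did not, and the dotted line is equality. The 4 red points lie near the line, and the points farthest from it are those of Hsp90aa1, Hspe1 and Hspd1 probe 60097. In wild type Hspa8 probe 1050132 differed in sign between slides, at 0.47 and -0.19 for 3 h against control and 0.57 and -0.11 for 3 h against 1 h.

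Restraint at 1 h gave no heat shock probe past the threshold in either genotype. In wild type 0 of 11 passed (limma), 2 had an unadjusted p under 0.05, as did 787 of 14405 probes, and 0.0625% of all probes passed. Of the 11 differences 9 were positive, with a median of 0.09 beside 0.00 over all probes, and a range of -0.09 to 1.16. In the knockout 0 of 11 passed, 2 had an unadjusted p under 0.05, as did 1727 of 14405, and 0.201% of all probes passed; the median was -0.02 beside -0.03. From 1 h to 3 h in the knockout 0 of 11 passed, 6 had an unadjusted p under 0.05, as did 2720 of 14405, and 0.514% passed. Dnajb1 at -0.59 ± 0.15 and Hsp90aa1 and Hspd1 probe 60097, given above, were the 3 differences of at least 1.5-fold there.

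Between genotypes at 1 h all 11 heat shock probes read lower in the knockout, with a range of -1.65 to -0.01. The median was -0.55 beside -0.01 over all probes, of which the share reading lower is not given here. Dnajb1 and Hspa8 probe 1050132, each at -0.01 with overlapping arrays, differed in sign between slides and show no difference. Of the 11, 8 had arrays that did not overlap, as did 51.6% of all probes. None passed (limma), 5 had an unadjusted p under 0.05, as did 2223 of 14405 probes, and 0.812% of all probes passed. With the slide as a block Hspb1 and Hsph1 did pass, the latter at an adjusted p of 0.0493. The probes are not independent of each other, 4 of them being of 1 gene. At 3 h the median was -0.02 beside -0.11, with 5 of 11 positive, and in controls -0.36 beside 0.00, with 2 of 11 positive.

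The difference between genotypes in the response to restraint was tested as an interaction. At 1 h 0 of 11 passed (limma), 3 had an unadjusted p under 0.05, as did 1367 of 14405 probes, and 0.0555% of all probes passed. The knockout response minus the wild-type response was -1.24 ± 0.47 for Hspd1 probe 60097, -0.81 ± 0.27 for Hspb1, -0.91 ± 0.52 for Hsp90aa1, -0.72 ± 0.51 for Hspe1 and 0.70 ± 0.29 for Hspa8 probe 1050132, with adjusted p of 0.425 to 0.707. Leaving out each array in turn gave -1.35 to -0.46 for Hsp90aa1 and -1.15 to -0.28 for Hspe1 at 1 h, the values nearest 0 being those without the second wild-type 1 h array and without the first wild-type control array, respectively. At 3 h 0 of 11 passed, 4 had an unadjusted p under 0.05, as did 2421 of 14405, and 0.139% of all probes passed. Beside Dnajb1, the values were 0.89 ± 0.23 for Hspa8 probe 105340592 (adjusted p = 0.116), 0.79 ± 0.29 for probe 1050132, -0.88 ± 0.27 for Hspb1 and -0.94 ± 0.51 for Hspe1. The Hspe1 value was -0.50 (adjusted p = 0.662) without the first wild-type control array. With median centring the Hspa8 probes 105340592 and 1050132 stood at 0.19 and 0.21 (adjusted p = 0.890 and 0.892), and the median of all probes at -0.36 in place of -0.12. Leaving out each array in turn gave -1.07 to -0.70 for Hspb1 at 3 h. Hspb1 passed there only without the first knockout 3 h array, which leaves that group on the array with the fewest detected probes. Hspd1 probe 60097 also passed at 3 h in that run.

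Counting each group once, as if it were 1 pool, by averaging its 2 arrays and fitting genotype and treatment as additive terms over the 6 means, 0 of 11 heat shock probes passed for genotype, for 1 h or for 3 h. Over all probes 0.0833%, 0% and 0% passed, and 2, 0 and 2 heat shock probes had an unadjusted p under 0.05, as did 1608, 293 and 1604 of 14405. Here the spread is the departure of group means from additive effects. Hsph1 differed by -1.02 ± 0.25 at 3 h (unadjusted p = 0.00285, adjusted p = 0.412) and Hspb1 by -0.77 ± 0.23 in the knockout (adjusted p = 0.258). The genotype term was negative for 11 of 11 probes, from -0.77 to -0.07, with a median of -0.35 beside -0.03 over all probes.

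Other chaperone genes, in 8 lists of 75 symbols of which 59, with 68 probes, were measured, moved in few comparisons. From control to 3 h in the knockout 5 of the 68 probes fell and 0 rose, where 5.41% of all probes fell and 3.26% rose, with a list median of -0.15 beside -0.11 over all probes. They were Bag6, which guards released membrane proteins (-0.96 ± 0.16), Dnajb2, a neuronal J-domain protein (-0.96 ± 0.22), Trap1, the mitochondrial HSP90 (-0.89 ± 0.23), Cryab, a small heat shock protein (-0.84 ± 0.16), and Stub1, a ubiquitin ligase that works with HSP70 (-0.78 ± 0.16). Leaving out the second knockout 3 h array left 4 of them, without Trap1. The 5 falls did not pass when either knockout control array was left out or with median centring. The number of list probes that fell also moved when other arrays were left out. The share of all probes falling in those refits is not given here.

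On the same probe Bag6 was also higher in knockout than in wild-type controls, by 0.86 ± 0.16 (adjusted p = 0.0387), the only 1 of the 68 in that comparison, where 1.67% of all probes passed, and it did not pass there when any wild-type array or either knockout control array was left out. A second Bag6 probe differed by -0.29 ± 0.19 and 0.14 ± 0.19 in these comparisons. In the other 7 comparisons of groups 0 of the 68 passed (limma), where 0.0625% to 1.38% of all probes did, and 1 to 12 had an unadjusted p under 0.05. The chaperonin TRiC, with 9 probes, had 0 probes past the threshold in any comparison and a median of 0.15 at 3 h in wild type. Chordc1, an HSP90 partner, differed by -1.35 ± 0.27 from control to 3 h in wild type (adjusted p = 0.118), next to Hspa4l, of the HSP110 family, at 0.70 ± 0.35 and Dnaja4, a J-domain protein, at -0.70 ± 0.21 (adjusted p = 0.488 and 0.282).

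The tissue was checked with markers. Of 10 pituitary markers 9 were measured, and the hormone genes Gh, Prl, Pomc, Cga, Lhb, Fshb and Tshb were detected on all 12 arrays. The summed normalized intensity of 5 measured red blood cell genes was 7651 to 7726 in wild-type controls, 4811 to 5128 at 1 h and 7676 to 8021 at 3 h. In the knockout it was 11184 to 11808 in controls, 7518 to 8413 at 1 h and 8106 to 8817 at 3 h. That of the 6 endothelial genes, of which Kdr was not detected, was 1246 to 1271 in knockout controls, 1794 to 2024 at 3 h in the knockout and 1519 to 1559 at 3 h in wild type. From control to 3 h in the knockout the endothelial gene Plvap rose by 1.25 ± 0.20, and of the pituitary markers Lhb rose on 1 probe by 1.02 ± 0.19, Tbx19 rose by 0.98 ± 0.23 and Tshb fell by 1.14 (SE 0.19). Hbb-bs, a beta globin gene, fell on 3 probes there, by 0.68 to 1.01. In controls the same 3 probes were higher in the knockout by 0.80 to 1.09, as was Hbb-b2 by 1.78 ± 0.25, and Hbb-b2 rose by 1.81 ± 0.25 from control to 3 h in wild type. Of 4 measured immune markers, Cd74 was detected on 12 arrays, C1qa on 4, Aif1 on 3 and Ptprc on 0, and their sum was 488 to 498 in the wild-type 1 h group and 779 to 963 in the knockout 3 h group, the lowest and the highest of the groups. Of 5 folliculostellate and stem cell markers, Aldh1a2 was detected on 9 arrays, Sox2 and Cdh1 on 2 each and S100b and Anxa1 on 0. Of 7 neural and posterior lobe markers, Oxt and Snap25 were detected on 12 arrays, Mbp on 11, Avp and Gfap on 1 each and Mobp and Rax on 0. The red blood cell sums move with the wild-type 3 h against 1 h comparison in which Hsph1 passed. They also move with genotype at 1 h, where the heat shock median was -0.55. The same holds for the knockout 3 h comparison in which Hsph1 and Hspa8 passed. The neural and posterior lobe sum was highest in the wild-type 1 h group, at 6291 to 6468, and was 4280 to 4958 in the knockout 1 h group. The pituitary marker sum was 216046 to 226693 in the wild-type and 229541 to 233240 in the knockout 1 h group. Most of that sum comes from Gh, Prl, Pomc and Cga, at median log2 levels of 15.37 to 16.04. Quantile normalization gives all arrays the same top values, so small differences in this sum cannot be read as endocrine cell content. The immune sum in the knockout 1 h group was 715 to 911. The endothelial, immune, red blood cell and pituitary sums also differ between genotypes at 3 h, where Hspb1 passed. The part of these markers in those results was not tested. In whole pituitary, fewer cells of a type and less RNA per cell cannot be told apart.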

How the data were processed

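The assay was expression profiling of pituitary RNA on Illumina bead arrays. Per the file headers, each array's deposited table holds a mean bead intensity and a detection p-value for each of 46147 probes. The submitters' processing notes name BeadStudio without a version. The authors' series table holds their processed log2 intensity for 46133 of the probes, with scale and centring not stated, a median of 9.70 to 9.71 per array, and served as an alternative. The 14 other probes were left out. In R 4.3.3 with limma 3.58.1, intensities were corrected by normexp using the detection p-values (offset 16), put on the log2 scale and quantile normalized. Probes with a detection p-value under 0.01 on at least 2 of 12 arrays were kept (14405), 1 row per probe. A group-means fit over 12 arrays shared 1 estimate of the spread. The members and lists were chosen with earlier results of these data known. Every member probe is reported, with single differences where called or at least 1.5-fold, the 3 probes most like Hsph1 and Dnajb1, and up to 4 examples per chaperone list. The number of arrays limits precision, and 26 to 61 beads lie behind each detected member value. The same-numbered arrays share a slide, per the file headers; deviations of same-numbered arrays correlated at -0.150 to 0.456 between groups, and fits with that number as a block are given where a call changed. Alternatives were median centring, no background correction, the authors' table, no detection filter, 1 probe per symbol, the replicate block, only the arrays compared, array quality weights, no fold threshold and leaving out each array.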

Additional observations from a re-analysis of the deposited data

How the results depend on the processing

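None of the 38 single differences rerun, those that passed or were at least 1.5-fold, had the opposite sign under an alternative run. They were chosen for size or call in these same data, and the runs reuse the same arrays. The agreement in sign therefore says little about how firm they are. The number of the 11 heat shock probes past the threshold moved as follows. The share of all probes passing under each alternative is not given here, so these counts do not tell heat shock probes apart from the rest. With median centring it was 0 for wild type 3 h against 1 h and for knockout 3 h against control, 1 for genotype at 1 h and 2 for genotype over 6 group means. Without background correction it was 2 for wild type 3 h against control, 3 for 3 h against 1 h, 2 for genotype in controls, 3 at 1 h, 1 for the 3 h interaction and 7 for the F test. In the authors' table it was 0 for wild type 3 h against 1 h. With no detection filter it was 0 for wild type 3 h against 1 h, 1 for knockout 3 h against control and 0 for genotype at 3 h. With 1 probe per symbol it was 2 for wild type 3 h against control and against 1 h, 1 for knockout 3 h against control and 1 for genotype at 1 h. With the replicate block it was 2 for wild type 3 h against 1 h, 1 for genotype in controls and 2 at 1 h. For knockout 3 h against control Hspb1 passed as well with the block (limma, adjusted p = 0.0373). The block moved no other count by over 1.5 times. With only the arrays compared it was 0 for wild type 3 h against 1 h, knockout 3 h against control and genotype at 3 h. With array quality weights, which were equal within each pair of arrays and lowest for the knockout 3 h pair (0.331), it was 2 and 4 for wild type 3 h against control and 1 h, 0 for knockout 3 h against control, 1, 3 and 0 for genotype in controls, at 1 h and at 3 h, and 5 for the F test. Leaving out each array in turn gave 0 to 2 for wild type 3 h against control, 0 to 2 against 1 h, 0 to 4 for knockout 3 h against control, 0 to 1 against 1 h, 0 to 1, 0 to 3 and 0 to 1 for genotype in controls, at 1 h and at 3 h, 0 to 2 for the 3 h interaction and 0 to 5 for the F test. Apart from the lost probes and arrays that the filter, the single probe per symbol and the smaller fits bring by construction, the cause was not tested. The median of all probes lay at -0.51 for genotype at 3 h with median centring and at -0.11 with quantile normalization. The 4 undetected probes have no measurable level, and with 2 arrays a group, titled technical replicates, of pooled RNA the spread between mice is not measured.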
